A study of Mus musculus with 6 samples.

Results

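Cartilage and joint genes were followed here as 10 named genes out of the 54752 gene rows of the table. They are the SOX transcription factors Sox9, Sox5 and Sox6, and the matrix genes Acan, Comp, Hapln1, Matn3, Matn4, Prg4 and Chad. They were chosen by name for their place in cartilage, with earlier results of these data known, and each symbol matched 1 row. A count in at least 1 library was found for 9 of the 10, and 8 had enough counts to be tested. The cells were mouse embryonic fibroblasts, which are connective tissue cells grown out of mouse embryos, in a line that the labels describe as p53-deleted. One group of 3 libraries (shARF) came from cells given a lentivirus with a hairpin RNA against p19ARF, labelled as ARF knockdown, and the other 3 (shNT) from cells given a negative control hairpin and labelled WT. Both groups thus shared the p53 deletion, the lentivirus and the tag neo in their titles, and were grown in the same medium with serum. RNA depleted of ribosomal RNA was sequenced with a stranded kit.

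Cartilage is built by chondrocytes, which secrete type II collagen and the large proteoglycan aggrecan. SOX9 starts this program and binds DNA through an HMG box, and SOX5 and SOX6, close relatives of each other that lack a transactivation domain, strengthen its action on cartilage genes. The matrix is then held together by link protein, matrilins and COMP, while lubricin coats the joint surface. Embryonic fibroblasts come from mixed mesenchyme, parts of which form skeleton in the embryo.

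Total counts were 45.2 to 46.3 M in shARF libraries and 40.3 to 47.02 M in shNT libraries. The targeted gene, Cdkn2a, was at 102 ± 5.56 CPM (counts per 1 M counts of the library, with TMM scaling) in shARF and 224 ± 6.90 CPM in shNT (SD, n = 3 each; log2 fold change -1.14, adjusted p = 2.52e-06, edgeR). Counts are per gene, so the level of the p19ARF transcript by itself was not measured. The groups also differed in marks of the culture. Xist, the RNA of the inactive X chromosome, was at 45.7 ± 7.48 CPM in shARF and 387 ± 26.5 CPM in shNT. The Y-linked Kdm5d was at 19.5 ± 0.622 CPM in shARF and 0.782 ± 0.216 CPM in shNT, and Ddx3y at 85.3 ± 4.19 CPM in shARF and 24.3 ± 1.60 CPM in shNT. Their part in the results below was not tested, and the hairpin and any difference between the cultures cannot be told apart. Fibroblast markers summed to between 24823 and 25238 CPM in shARF and between 21780 and 23359 CPM in shNT, and all 13 were above 1 CPM in at least 1 library. The titles call the replicates biological without stating if each had its own infection, and p-values cover only the spread among the libraries at hand, part of which may be technical. In such bulk RNA, fewer cells that express a gene and less RNA per cell cannot be told apart.

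Promoter windows of the members that moved most are shown here to place them in the genome and to mark matches to the letters that SOX factors bind. RefSeq windows of 300 bases on GRCm38.p6, from 250 bases before to 50 after a transcript start, were held for 7 of the 10 genes, and Sox9, Comp and Prg4 had none. The sequences run 5′ to 3′ on the strand of the gene, and capitals mark the SOX core motifs ACAAAG and ACAATG on either strand. The Sox6 window lies at chr7:116038695-116038994 (minus strand), 52 bases from the annotated 5′ end of the gene. The Sox5 window lies at chr6:143947057-143947356 (minus strand), at an internal start 835 kb from the annotated 5′ end. The Acan window lies at chr7:79052976-79053275 (plus strand), 257 bases from the annotated 5′ end.
Sox6: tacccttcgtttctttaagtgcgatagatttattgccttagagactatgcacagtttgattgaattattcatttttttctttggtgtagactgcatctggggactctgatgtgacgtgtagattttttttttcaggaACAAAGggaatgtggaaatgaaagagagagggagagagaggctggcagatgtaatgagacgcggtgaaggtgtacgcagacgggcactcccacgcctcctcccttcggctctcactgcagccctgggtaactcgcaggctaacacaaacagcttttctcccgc
Sox5: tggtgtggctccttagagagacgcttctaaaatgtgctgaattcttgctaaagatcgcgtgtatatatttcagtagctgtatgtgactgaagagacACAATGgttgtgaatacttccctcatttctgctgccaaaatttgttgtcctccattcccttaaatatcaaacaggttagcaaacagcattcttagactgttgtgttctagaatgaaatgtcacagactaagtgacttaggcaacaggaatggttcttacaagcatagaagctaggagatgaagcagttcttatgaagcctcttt
Acan: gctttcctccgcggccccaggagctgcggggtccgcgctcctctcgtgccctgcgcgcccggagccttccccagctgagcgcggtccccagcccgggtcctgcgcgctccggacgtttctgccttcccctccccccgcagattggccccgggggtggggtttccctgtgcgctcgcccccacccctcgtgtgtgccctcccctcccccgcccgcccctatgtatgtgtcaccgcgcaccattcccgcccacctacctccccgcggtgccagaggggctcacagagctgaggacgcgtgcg
The Sox6 window held 1 ACAAAG and the Sox5 window 1 ACAATG, while the Acan window held neither. The reverse complements searched were CTTTGT and CATTGT. Among all 32851 windows of the same length, 18.7% held ACAAAG, 12.6% held ACAATG and 28.6% held either. Taking the window nearest to the 5′ end of each gene, 2 of the 7 genes had a match. Sox6 had 6 windows in all, of which 5 had a match. The Acan window was 74.0% G and C, against 47% for Sox6, 39.7% for Sox5 and a median of 52.7% over all windows. A match describes letters and not binding.

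The cartilage and joint genes did not move together between shARF and shNT. Sox9, Sox5, Acan, Comp and Prg4 were lower in shARF and Sox6 was higher, while Matn3 and Matn4 did not pass the test. By edgeR with Benjamini-Hochberg adjustment over all 17128 genes tested, at an adjusted p of 0.05, 6 of the 8 tested members were called (1 higher, 5 lower). The background was high, since 56.4% of all genes tested were called, 28.8% as higher and 27.7% as lower in shARF. Changes of at least 2-fold were called for 1 member that was higher and 3 that were lower, against 14.4% of all genes tested in either direction. For 6 of the 8, no shARF library reached into the CPM range of shNT, against 64.6% of all genes. The median log2 fold change of the 8 was -0.84, against -0.01 over all genes, and their median absolute change was 1.45, against 0.34. The filter on low counts lets a gene enter through the group where it is high, and the members were chosen with earlier results known. These counts and medians thus describe the 8 genes and are no test of the list. With library sizes alone as the scaling, 4023 of all genes were called higher and 5874 lower, against 4930 higher and 4737 lower with TMM, and the members gave 1 higher and 5 lower in both.

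**Figure D1:**
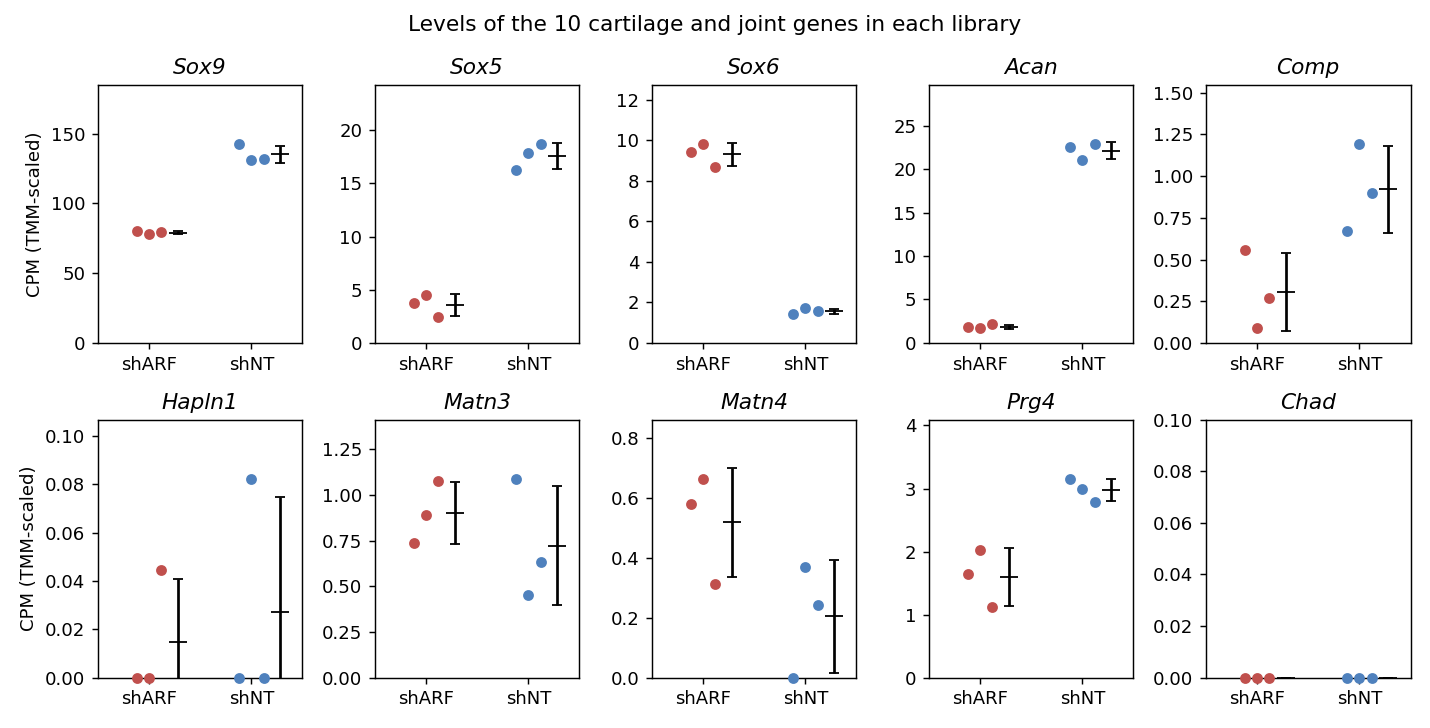
CPM of each of the 10 genes in every library (points; red shARF, blue shNT), with the mean and SD of each group in black (n = 3); each panel has its own linear axis from 0. The groups lie apart for Sox9, Sox5, Sox6, Acan, Comp and Prg4, overlap for Hapln1, Matn3 and Matn4, and Chad has no count in any library.

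Sox9 (ENSMUSG00000000567.5; GRCm38 chromosome 11, 112782224 to 112787760, plus strand) encodes the factor that founds the chondrocyte lineage and was the most abundant member in both groups. Its level was 80.1, 78.1 and 79.2 CPM in the shARF libraries, against 142, 131 and 132 CPM in the shNT libraries. Every shARF library was below every shNT library, and the shARF libraries lay close together. The means were 79.1 ± 0.997 CPM in shARF and 135 ± 6.11 CPM in shNT (SD, n = 3 each), a log2 fold change of -0.77 (SE 0.04, adjusted p = 6.00e-06). Sox9 overlaps no other annotated gene. Per length of merged exons it stood above 81.6% of all tested genes in shARF and 90.4% in shNT.

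Sox5 and Sox6, which encode SOXD factors with an HMG box and a coiled coil, changed in opposite directions. Sox5 (ENSMUSG00000041540.16; chromosome 6, 143828425 to 144781977, minus strand) was at 3.75, 4.47 and 2.44 CPM in shARF libraries and at 16.3, 17.9 and 18.7 CPM in shNT libraries. All shARF libraries were low, and replicate 3 was the lowest. The means were 3.55 ± 1.03 CPM in shARF and 17.6 ± 1.20 CPM in shNT (log2 fold change -2.31, SE 0.20, adjusted p = 8.74e-05). Sox6 (ENSMUSG00000051910.13; chromosome 7, 115470872 to 116038796, minus strand) was at 9.43, 9.80 and 8.70 CPM in shARF libraries and at 1.43, 1.70 and 1.55 CPM in shNT libraries. The groups were far apart, with shARF high in each library. The means were 9.31 ± 0.563 CPM in shARF and 1.56 ± 0.136 CPM in shNT, the largest rise among the members (log2 fold change 2.57, SE 0.10, adjusted p = 2.02e-06). None of the 9 short or noncoding genes annotated within Sox5 or Sox6 had enough counts to be tested, and their highest group mean was 0.171 CPM (Gm44068 in shNT, within Sox5 on the same strand). Among them, only Sox5os1 shares exon bases with its host, 1330 with Sox5 on the opposite strand, and it had no count in any library.

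The opposite changes turned over which of Sox5 and Sox6 led. Sox13, which is a SOXD gene as well, is left out of the shares and sums of this paragraph. Per kb of merged exon, Sox13 was at 1.08 CPM in shARF, above both, and at 0.223 CPM in shNT, between them. Per kb of merged exon, Sox5 was at 0.247 ± 0.0716 CPM in shARF and 1.22 ± 0.0837 CPM in shNT, and Sox6 at 0.628 ± 0.0380 CPM in shARF and 0.105 ± 0.00914 CPM in shNT. Sox6 made up 70.9%, 68.0% and 77.6% of the level per length of both genes in shARF libraries, against 7.85%, 8.46% and 7.46% in shNT libraries. The groups did not overlap. Their summed level per length was 0.875 ± 0.110 CPM per kb in shARF and 1.33 ± 0.0895 CPM per kb in shNT, so the sum differed less than either gene. An exact two-sided permutation test gave p = 0.1 for the share and for the sum, the smallest that 3 against 3 libraries allow (0.133 adjusted over 4 SOX measures). The ratio of Sox9 to that sum, per length, was 21.6, 19.4 and 25.4 in shARF libraries and 27.96, 23.4 and 22.8 in shNT libraries. These values overlap (exact p = 0.4, 0.4 adjusted), with a difference in means of -2.58. Merged exons count every annotated isoform, so levels per length of genes as long as these understate a gene that uses short isoforms.

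**Figure D2:**
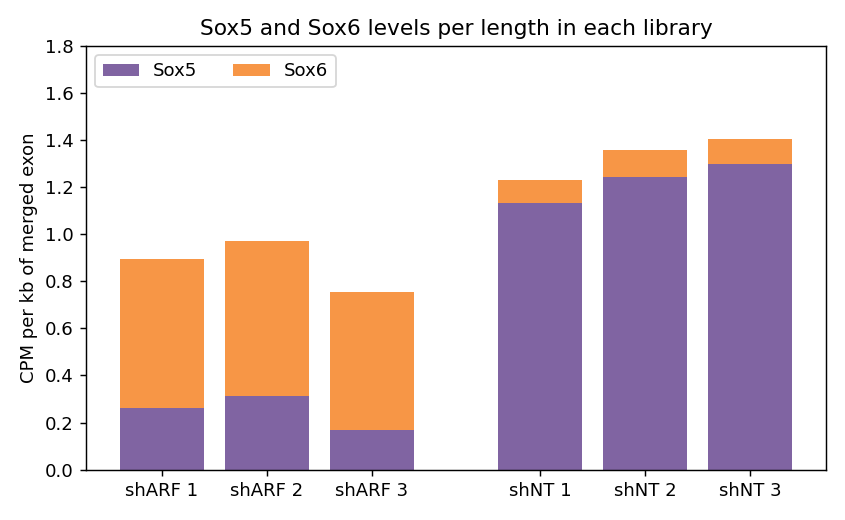
Level of Sox5 (purple) and Sox6 (orange), stacked, in CPM per kb of merged exon for each library, shARF left and shNT right. Sox6 takes 68.0% to 77.6% of the stack in shARF libraries and 7.46% to 8.46% in shNT libraries.

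Other SOX genes give the setting of the SOX members. Of 17 further SOX genes, 6 were tested and all were called, 4 higher and 2 lower (median log2 fold change 0.64, against -0.01 over all genes). Over all genes tested, 56.4% were called, 28.8% as higher and 27.7% as lower. That background applies to the counts of each list below as well. Sox13, the remaining SOXD gene, rose to 4.64 ± 0.571 CPM in shARF, against 0.963 ± 0.132 CPM in shNT (log2 fold change 2.26, SE 0.15, adjusted p = 2.43e-05). Sox8, the SOXE relative of Sox9, was at 1.51 ± 0.156 CPM in shARF and 0.0616 ± 0.107 CPM in shNT (log2 fold change 4.47, SE 0.75, adjusted p = 0.00205). Its shNT counts were 0, 9 and 0, and without shNT replicate 2 the fitted value was 9.06. Sox10, the other SOXE gene and a marker of neural crest, had no count in any library. The SOXC genes Sox11 (log2 fold change 0.83) and Sox12 (0.44, named after its values were seen) rose and Sox4 fell (-0.35). Sox21 had no count in shARF and 1.55 ± 0.383 CPM in shNT, at least 68.8-fold lower in shARF, taking 3 counts summed over its libraries as the floor. In order of level per length among the 20 SOX genes, Sox9 was second in both groups, after Sox4 (19.1 CPM per kb for Sox9 and 76.6 for Sox4 in shARF, against 32.7 and 97.3 in shNT). Sox6 was at place 6 in shARF and 8 in shNT, and Sox5 at place 8 in shARF and 5 in shNT.

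Acan (ENSMUSG00000030607.7; chromosome 7, 79053483 to 79115099, plus strand) encodes aggrecan, the large chondroitin sulfate proteoglycan of cartilage, and showed the largest fall among the members. It was at 1.78, 1.71 and 2.15 CPM in shARF libraries and at 22.6, 21.01 and 22.8 CPM in shNT libraries. No shARF library came near the lowest shNT library. The means were 1.88 ± 0.234 CPM in shARF and 22.1 ± 0.985 CPM in shNT (log2 fold change -3.56, SE 0.10, adjusted p = 5.48e-07), and 97.7% of tested genes had an absolute change no larger than that of Acan. Acan overlaps no other annotated gene. It held 33.6%, 31.8% and 43.2% of the summed CPM of the 7 matrix members in shARF libraries, against 82.1%, 80.5% and 83.3% in shNT libraries. That sum was 5.22 ± 0.223 CPM in shARF and 27.0 ± 0.770 CPM in shNT, so its difference is mostly that of Acan.

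Hapln1 (ENSMUSG00000021613.9; chromosome 13, 89539796 to 89611652, plus strand) encodes link protein, which fixes aggrecan to hyaluronan. It had 0, 0 and 2 counts in shARF libraries and 0, 4 and 0 counts in shNT libraries. Chad (ENSMUSG00000039084.8; chromosome 11, 94565047 to 94569127, plus strand) encodes chondroadherin, a leucine-rich repeat protein of cartilage, and had no count in any library. A count of 0 allows up to 0.0669 to 0.0684 CPM per shARF library and 0.0616 to 0.0728 CPM per shNT library (3 counts, counting error only). A difference in either gene was not detectable at this depth. Chad lies within Acsf2 on the opposite strand and shares no exon bases with it. Acsf2 itself was at 27.0 CPM in shARF and 46.8 CPM in shNT.

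Comp (ENSMUSG00000031849.9; chromosome 8, 70373558 to 70382066, plus strand) encodes cartilage oligomeric matrix protein, a thrombospondin of cartilage and tendon. It was at 0.558, 0.0912 and 0.268 CPM in shARF libraries and at 0.673, 1.19 and 0.898 CPM in shNT libraries. These stand for 25, 4 and 12 counts in shARF and 31, 58 and 37 counts in shNT. The groups did not overlap, but the highest shARF library (95% Poisson interval 0.361 to 0.823 CPM) and the lowest shNT library (0.457 to 0.955 CPM) lay within each other's counting error. Comp had a log2 fold change of -1.58 (SE 0.53, adjusted p = 0.0410). The call was lost in 7 of the 13 alternatives in which Comp was tested (adjusted p from 0.0114 to 0.123), which include leaving out shARF replicate 2 or 3 or any one of the shNT replicates. Without shARF replicate 1 the log2 fold change was -2.33. Its neighbours within 5 Mb leaned the same way: of 133 tested genes, 16 were higher and 80 lower (median log2 fold change -0.35). Over all genes tested, 28.8% were called higher and 27.7% lower. Around the other 9 members this median lay between -0.12 and 0.09. Calls leaned lower around some of those too, most around Chad (27 higher and 53 lower of 136) and Sox9 (15 higher and 32 lower of 91). They leaned higher around Sox6, Hapln1 and Matn3. The part of the region in the change of Comp was not tested.

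The matrilins Matn3 and Matn4 encode filament-forming adaptor proteins of the cartilage matrix and were at low levels. Matn3 (ENSMUSG00000020583.4; chromosome 12, 8947929 to 8972028, plus strand) was at 0.736, 0.889 and 1.07 CPM in shARF libraries and at 1.09, 0.451 and 0.631 CPM in shNT libraries. The groups overlapped, since shNT replicate 1 was the highest of all 6. Its log2 fold change was 0.32 (SE 0.34, adjusted p = 0.472). Matn4 (ENSMUSG00000016995.17; chromosome 2, 164389393 to 164405160, minus strand) was at 0.580, 0.661 and 0.313 CPM in shARF libraries and at 0, 0.369 and 0.243 CPM in shNT libraries. Here too the ranges overlapped, with shARF replicate 3 below shNT replicate 2. Its log2 fold change was 1.32 (SE 0.79, adjusted p = 0.197). Matn4 shares 149 exon bases with Rbpjl on the opposite strand, which had no count in any library. Of the other matrilins, Matn1, the classical matrilin of cartilage, had no count, and Matn2, which is made by many tissues, was at 87.8 ± 2.52 CPM in shARF and 84.8 ± 2.78 CPM in shNT (log2 fold change 0.05, adjusted p = 0.307, with -0.0399 by library sizes alone). Both were named after their values were seen.

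Prg4 (ENSMUSG00000006014.16; chromosome 1, 150449412 to 150466165, minus strand) encodes lubricin, the mucin-like glycoprotein of the joint surface and synovial fluid. It was at 1.65, 2.03 and 1.12 CPM in shARF libraries and at 3.15, 3.00 and 2.79 CPM in shNT libraries. All shARF libraries were below all shNT libraries. The means were 1.599 ± 0.458 CPM in shARF and 2.98 ± 0.178 CPM in shNT (log2 fold change -0.90, SE 0.21, adjusted p = 0.00971). Prg4 shares 204 exon bases with Tpr on the opposite strand, a nuclear pore gene at 413 CPM in shARF and 369 CPM in shNT. Spread evenly over the exons of Tpr, those bases would hold 8.03 CPM of Tpr in shARF and 7.17 CPM in shNT, more than the whole level of Prg4. Whether reads were counted by strand is unknown here, so reads of Tpr may stand in the Prg4 count, and their part in it was not tested. Tpr was higher in shARF (log2 fold change 0.16, adjusted p = 0.0134), the opposite direction to Prg4, though with library sizes alone as the scaling it did not pass the test (0.07, adjusted p = 0.207).

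**Figure D3:**
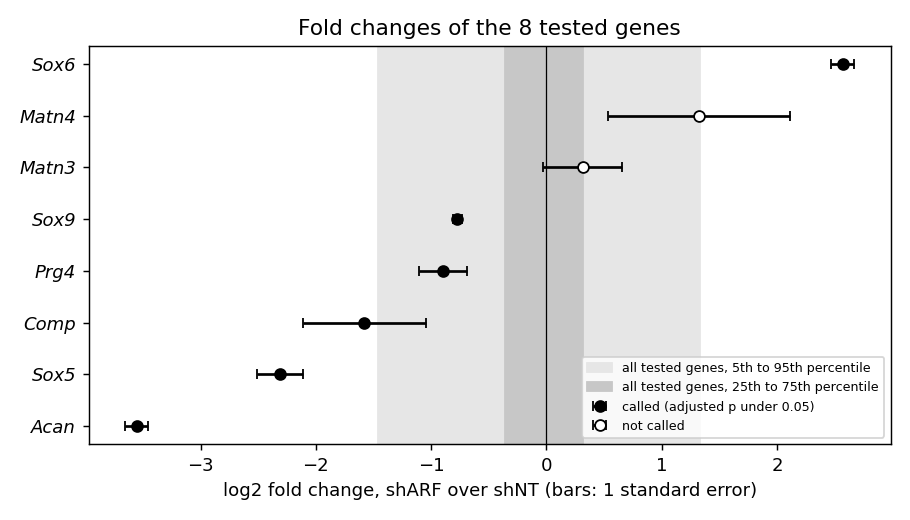
Log2 fold change of shARF over shNT for the 8 tested members (bars 1 standard error; filled points called, open points not called), over the range of all 17128 tested genes (light band 5th to 95th percentile, dark band 25th to 75th). Acan, Sox5 and Comp lie below the light band, which runs from -1.46 to 1.33, and Sox6 lies above it.

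In order of level per kb of merged exon, the members in shARF ran Sox9 (19.1 CPM per kb), Sox6 (0.628), Prg4 (0.374), Matn3 (0.298), Acan (0.252), Sox5 (0.247), Comp (0.103), Matn4 (0.1001), Hapln1 (0.00253) and Chad. In shNT the order was Sox9 (32.7 CPM per kb), Acan (2.96), Sox5 (1.22), Prg4 (0.696), Comp (0.310), Matn3 (0.240), Sox6 (0.105), Matn4 (0.0394), Hapln1 (0.00464) and Chad. In shARF the ranges over libraries overlapped for Prg4 with Matn3, for Matn3 with Acan, for Acan with Sox5, for Sox5 with Comp and for Comp with Matn4, so those neighbours did not differ beyond their spread. In shNT the ranges overlapped for Comp with Matn3 and for Matn4 with Hapln1. Hapln1 overlapped Chad, at 0, in both groups. Apart from Sox9, the tested members were in the lower part of all tested genes by level per length. Sox6 stood above 22.9% of tested genes in shARF and 4.75% in shNT, Acan above 12.8% in shARF and 43.1% in shNT, and no tested member other than Sox9 exceeded 22.9% in shARF or 43.1% in shNT.

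The cartilage collagens, the fibrils in which these proteoglycans sit, also went both ways: 3 of 6 tested were higher and 2 lower (median log2 fold change 0.32). Col2a1, the type II collagen chain and a textbook target of SOX9, fell to 9.03 ± 1.03 CPM in shARF, against 120 ± 2.19 CPM in shNT (log2 fold change -3.73, SE 0.09, adjusted p = 3.29e-07), a change near that of Acan. Col11a2 rose (4.45 ± 0.521 CPM in shARF and 0.895 ± 0.261 CPM in shNT, log2 fold change 2.30), as did Col11a1 (0.64) and Col27a1 (0.77). Col10a1, the collagen of hypertrophic chondrocytes, was lower (-1.36) at under 1 CPM in both groups and was named after its values were seen. Col9a1, a chain of cartilage type IX collagen, had no count in any library.

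Other non-collagen matrix genes ranged from no count to high levels. Of 20 genes, 8 had no count in any library, among them Cnmd (chondromodulin), Ucma and Snorc, and 6 were tested, of which 1 was higher and 3 lower (median -0.26). Vcan, the proteoglycan versican of loose mesenchyme, was lower, at 1328 ± 33.4 CPM in shARF and 1958 ± 43.5 CPM in shNT (log2 fold change -0.56, SE 0.03, adjusted p = 4.30e-06). Mgp, the inhibitor of calcification matrix Gla protein, fell as well (45.4 ± 2.24 CPM in shARF and 87.5 ± 3.41 CPM in shNT, log2 fold change -0.95). Cytl1 had no count in shARF and 0.501 ± 0.114 CPM in shNT, at least 22.3-fold lower in shARF by the same floor. Hspg2, which encodes perlecan, rose (0.31).

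Among 15 tested regulators of chondrogenesis, 8 were higher and 2 lower (median 0.24). Runx3 (log2 fold change 1.61, 50.9 ± 1.78 CPM in shARF and 16.6 ± 0.262 CPM in shNT) and Runx1 (1.40, 63.2 ± 2.50 CPM in shARF and 23.9 ± 2.41 CPM in shNT), factors of the RUNX family that drives skeletal maturation, rose. Runx2, the main factor of hypertrophic cartilage and bone, was at 84.0 ± 7.47 CPM in shARF and 74.2 ± 2.28 CPM in shNT (log2 fold change 0.18, adjusted p = 0.0541) and was named after its values were seen. It passed the test with DESeq2 (adjusted p = 0.0285) and in edgeR without shARF replicate 2 (adjusted p = 0.0275). In the other 12 of 14 alternatives it did not pass. With library sizes alone its log2 fold change was 0.09 (adjusted p = 0.300, edgeR). Foxa2, a forkhead factor with a role in hypertrophic chondrocytes of the mouse, was at 12.4 ± 0.421 CPM in shARF and had no count in shNT (at least 562-fold higher, by the same floor). Mef2c, another factor of chondrocyte hypertrophy, fell (-2.57, 1.35 ± 0.4 CPM in shARF and 8.0 ± 0.162 CPM in shNT). Pax9 (-0.33, adjusted p = 0.0443) was the other lower gene and was named after its values were seen. Its call was lost in 7 of 14 alternatives (adjusted p from 0.0162 to 0.131), among them those without shARF replicate 1 or 3 or shNT replicate 2 or 3. Of 7 tested growth plate signalling genes, 4 were higher and 0 lower (median 0.58): Bmpr1b, a BMP receptor (1.24), Trpv4, a calcium channel (1.00), Npr2, a natriuretic peptide receptor (0.36), and Pthlh (1.94, or 2.67 without shNT replicate 2, under 1 CPM in both groups, named after its values were seen). Ihh, the hedgehog ligand of the growth plate, had no count in shARF and a mean of 0.0162 CPM in shNT.

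Enzymes that build the chondroitin sulfate chains carried by aggrecan were well expressed, and 24 of 25 were tested, of which 12 were higher and 6 lower (median 0.19). Chst7, a sulfotransferase, rose to 22.1 ± 1.11 CPM in shARF, against 3.47 ± 0.116 CPM in shNT (log2 fold change 2.67, SE 0.07, adjusted p = 3.88e-07). Xylt1, which starts the chains, rose (0.71) and Chst15, which makes a disulfated form, fell (-1.04). Chsy3 (-1.07) and Chpf2 (-1.01), named after their values were seen, were also lower by at least 2-fold. The call of Chpf2 (adjusted p = 0.0201) was lost without shARF replicate 2 (0.0570), shARF replicate 3 (0.0645) or shNT replicate 2 (0.0633). Of 10 hyaluronan genes tested, 6 were higher and 2 lower (median 0.52). Has2, the main hyaluronan synthase of mesenchyme, fell (88.4 ± 2.40 CPM in shARF and 214 ± 13.8 CPM in shNT, -1.27), as did Tnfaip6 (-0.71, named after its values were seen). The receptor Cd44 (0.50) and the hyaluronidase gene Cemip2 (0.53) rose. Of 9 genes for proteases that cut aggrecan or COMP and for their regulators, 4 were higher and 4 lower (median 0.05). Adamts5, a main aggrecanase of the mouse, rose (0.49, 675 ± 5.66 CPM in shARF and 479 ± 6.63 CPM in shNT) together with its inhibitor Timp3 (0.49), and Adamts1 fell (-0.71). Named after their values were seen, Htra1 (0.53) and Adamts15 (1.78) were also higher, and Adamts4 (-0.41), Adamts7 (-0.44) and Adamts12 (-0.23) also lower.

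Of 13 genes of joint formation and synovium, all tested, 4 were higher and 7 lower (median -0.74). Vit, a matrix gene, fell to 0.734 ± 0.166 CPM in shARF, against 10.1 ± 0.938 CPM in shNT (log2 fold change -3.77, SE 0.16, adjusted p = 3.27e-06). Osr1, a factor of early limb and joint mesenchyme, fell (-1.37, 30.1 ± 0.309 CPM in shARF and 77.5 ± 4.10 CPM in shNT). Cd55, a complement regulator found on synovial lining cells, rose (4.68, 14.8 ± 0.992 CPM in shARF and 0.583 ± 0.193 CPM in shNT). Gdf6 (1.57), Creb5 (1.26) and Wnt4 (1.75), named after their values were seen, were the other higher genes. Of 9 tested tendon genes, 4 were higher and 3 lower (median 0.06). Scx, the scleraxis factor of tendon progenitors (1.12, 52.5 ± 1.95 CPM in shARF and 24.2 ± 1.15 CPM in shNT), its target Tnmd (2.23, 41.5 ± 4.61 CPM in shARF and 8.82 ± 0.407 CPM in shNT) and Tnc (0.96) rose. Mkx (0.81, adjusted p = 0.0328, named after its values were seen) was also called higher, a call lost in 5 of 14 alternatives (adjusted p from 0.00505 to 0.102), among them those without shARF replicate 3 or shNT replicate 1 or 3. Kera fell to 0.0149 ± 0.0258 CPM in shARF, which is 2 counts in all, against 0.581 ± 0.139 CPM in shNT, together with Thbs3 and Tnxb (-1.04, named after its values were seen). Among thrombospondins other than Comp, Thbs2 fell (-0.82, 560 ± 4.16 CPM in shARF and 991 ± 12.3 CPM in shNT) and Thbs1 rose (0.20). Thbs3 was called lower (-0.20, adjusted p = 0.0216), a call lost without shARF replicate 1 (adjusted p = 0.0749), shARF replicate 3 (0.0747), shNT replicate 2 (0.0660) or shNT replicate 3 (0.0666).

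**Figure D4:**
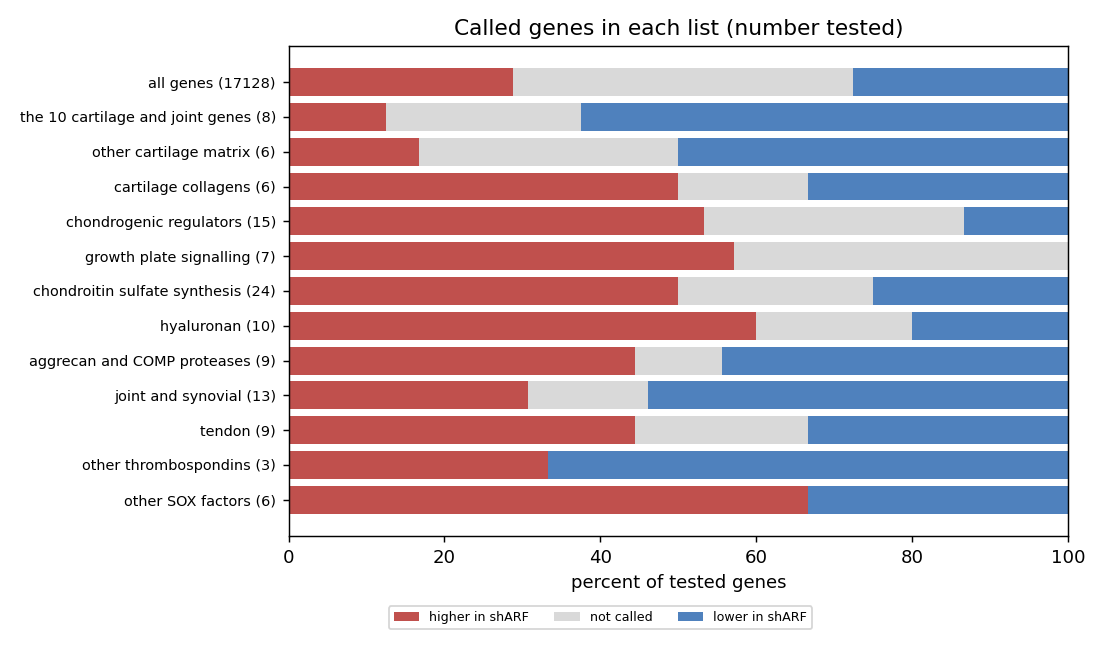
Percent of tested genes in each list that were called higher in shARF (red), not called (grey) or called lower in shARF (blue), with the number tested in brackets and all tested genes in the top row. The cartilage and joint genes have 1 of 8 higher and 5 of 8 lower, and growth plate signalling genes have 4 of 7 higher and 0 lower.

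Over these 11 lists, which hold 144 genes beside the members, 106 genes were tested. Of those, 77.4% were called, 50 higher and 32 lower (median 0.17), against 56.4% of all genes tested. The lists were chosen with earlier results of these data known. This share and the counts of each list thus describe their genes and are no test of the lists. Marker sums of other cell types also lay apart between the groups, except for endothelium. The part of these markers in the changes above was not tested. Marker counts are out of all genes listed, and genes too low to be tested are neither higher nor lower. Osteoblast markers summed to between 206 and 233 CPM in shARF and between 474 and 511 CPM in shNT, with 2 of 13 higher and 2 lower, and Bglap, Bglap2, Ibsp, Mepe and Sost at 0 in every library. Most of that sum was Spp1, at 179 ± 5.29 CPM in shARF and 460 ± 23.2 CPM in shNT. The 2 higher were Dlx5 (log2 fold change 2.78) and Alpl (1.20), and the 2 lower were Spp1 (-1.36) and Phex (-1.13). Macrophage markers summed to 1.498 to 1.99 CPM in shARF and 6.73 to 7.47 CPM in shNT (0 of 5 higher, 2 lower, the others not tested), with Adgre1 at 0. Adipocyte markers summed to 34.8 to 37.1 CPM in shARF and 20.4 to 20.8 CPM in shNT (3 of 6 higher, 0 lower, the others not tested), with Cidec at 0. Epithelial markers summed to 7.04 to 7.50 CPM in shARF and 3.25 to 3.53 CPM in shNT (2 of 6 higher, 0 lower). Skeletal muscle markers summed to 6.11 to 6.998 CPM in shARF and 3.59 to 4.42 CPM in shNT (2 of 10 higher, 1 lower), with Myod1, Myog, Pax7 and Ckm at 0. Endothelial markers summed to 2.80 to 3.62 CPM in shARF and 2.40 to 2.99 CPM in shNT, ranges that overlap, with Cdh5 at 0. Of these 5 markers, 1 was higher (Kdr, log2 fold change 3.47), 1 was lower (Tek, -4.94) and the others were not tested. Neural crest and glial markers summed to 1.09 to 1.25 CPM in shARF and 1.36 to 1.87 CPM in shNT (0 of 7 higher, 1 lower), with Sox10, Foxd3 and Sox2 at 0. Among fibroblast markers, 5 of 13 were higher and 4 lower. The largest of these changes were Pdgfra, at 91.4 ± 2.23 CPM in shARF and 502 ± 5.65 CPM in shNT, and Dcn, at 45.4 ± 3.55 CPM in shARF and 198 ± 5.00 CPM in shNT.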

How the data were processed

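RNA-seq of 3 shARF and 3 shNT cultures was analysed from the authors' deposited table of raw whole-number counts per gene. HISAT2 2.1.0 and StringTie 1.3.2 stand in the submitters' processing notes with GRCm38, beside Trim Galore 0.4.1, Picard 2.13.2, SAMtools 0.1.19 and DESeq2 1.34.0, with no role or order. Their annotation and strand setting are not known here, and overlapping genes share reads if strand was ignored. Columns were matched to titles by group and replicate (the index number differs for shARF), and 6 columns that match no sample were not used. Symbols, positions and merged exon lengths came from GENCODE M21 (54723 of 54752 rows matched with the version ignored). Total counts were 40.3 to 47.02 M per library.

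Groups were compared with edgeR 4.0.16 (quasi-likelihood fit and F test, R 4.3.3) with group as the sole term, TMM, filterByExpr at a minimum count of 10 and a total of 15, and Benjamini-Hochberg adjustment across the 17128 genes kept (two-sided, called under 0.05). The SE is the fold change divided by the root of F. Adjusted p-values in the text come from this fit. Per-library intervals are exact Poisson intervals and, like floors of 3 counts, cover counting error only. Both take each count as an independent fragment, which is not known here. Some low rows hold only even counts, such as Epyc (8, 4 and 6 in shARF, 4, 2 and 2 in shNT). If counts are not independent fragments, the intervals are too narrow and the floors too low. Libraries of 1 group differed beyond counting noise (13.4 to 18.2 of chi-square per gene within a group and 134 to 142 between groups), and all 6 were kept as separate samples. Alternatives were other scalings and filters, DESeq2 1.42.0, limma-voom (limma 3.58.1), a replicate block and each library left out.

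The members and lists were chosen with earlier results of these data known. Named were the 10 members, Cdkn2a, Xist, Kdm5d, Ddx3y and genes overlapping a member, and from each list the 3 tested genes with the smallest p and any called with a change of at least 4-fold. Other genes were named after their values were seen, which holds for marker genes and genes at 0 as well.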

Additional observations from a re-analysis of the deposited data

How the results depend on the processing

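Of the 8 tested members, 7 kept their direction and their side of the threshold in each alternative that could test them, and Comp lost its call in 7 of 13. Members called were 1 higher in all 14 alternatives, and 4 or 5 lower. Comp had an adjusted p of 0.0657 with no filter on low counts, 0.0922 with the replicate block and 0.0511 to 0.123 in the 5 fits without 1 library that lost it. The 75 tested genes refitted are the members, Cdkn2a and other tested genes named in the text. Alpl, Dlx5, Phex, Kdr, Tek, Erg, Nog, Wnt9a, Tspan15 and Pdpn were named but not refitted. Of 1043 refits, 1013 gave the same call. Of the others, 27 lost it (Comp, Pax9, Mkx, Thbs3, Chpf2 and Tpr), 2 gained it (Runx2) and 1 changed sign without a call (Matn2, -0.0399 with library sizes alone). The count of genes called was 9667 of 17128, 9067 with DESeq2 and 9381 of 27864 with no filter on low counts. Same-numbered replicates did not deviate together (correlations of -0.131, -0.047 and -0.033). Such correlations cannot settle whether same-numbered libraries shared an infection or a preparation, which the titles do not state. With the replicate block, 8913 genes were called and the members gave 1 higher and 4 lower. With at least 1 CPM in 3 libraries, Comp, Matn3 and Matn4 were not tested. Without shARF replicate 1 the log2 fold change of Kera was -7.71, with 0 counts left in shARF. Depth limits Hapln1, Chad, Comp, Matn3 and Matn4, each at 58 counts or fewer in every library.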
